A study of Mus musculus with 8 samples.

Results

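The genes described here are 10 genes of the intestinal goblet cell and its mucus: Muc2, Tff3, Fcgbp, Agr2, Zg16, Spdef, Atoh1, Spink4, Retnlb and Muc13. They were chosen by symbol, and each was read by 1 probe, named through its RefSeq accession. All 10 were among the 21319 genes tested, and 9 of them were well above background on all 8 arrays, while Retnlb was so on 6. The mice, of the strain C57BL/6J Min/+, carry a truncating mutation of the tumour suppressor gene Apc and grow intestinal adenomas; total RNA of their small intestine was measured on 8 single-colour arrays. The 4 groups of 2 arrays were Western females, Western males, Control females and Control males. Every group carried the Min allele, so no wild-type epithelium was measured, and the labels do not say how much adenoma the tissue held. Western mice were fed a high-fat variant of the AIN-93G diet that was poor in fibre, vitamin D, calcium and folate, in which milk gave 66.4% of the fat and sunflower and rapeseed oil gave 33.6%. Control mice were fed the unmodified semisynthetic AIN-93G formula. The labels give an experiment of 18 months for all groups and no age. Each array held RNA of 1 to 3 mice, and the labels do not say that a group's arrays held separate animals; the p-values then cover array-to-array spread alone, which may be technical.

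Goblet cells are the mucus-secreting cells of the intestinal epithelium. Atoh1, a transcription factor released from Notch inhibition, commits progenitors to the secretory lineages, and Spdef drives goblet cell maturation. The mature cell folds and packs the gel-forming mucin Muc2 and releases it together with smaller proteins that bind or cross-link the gel.

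Each value is a log2 processed signal from which the array's own 75th percentile (also as log2) was subtracted, so a difference of 1 is a 2-fold difference. Probes of different genes bind with different strength, so levels were compared between arrays and not between genes. The 75th percentile lay between 486.3 and 901.8, and 55.1% to 61.9% of probes were well above background on 7 arrays, against 75.7% on Control female 2. The library labelled Control female 1 carried the Y-linked transcript Eif2s3y at 1.90, a level within the range of the male arrays (1.75 to 2.45), whereas the other female arrays lay between -7.28 and -5.58. It was kept under its label, and it is 1 of the 2 Control female arrays. Tissue and cell type markers were present: Fabp6, a bile acid binding protein of the ileal enterocyte, lay between 9.14 and 9.69, and Clca1, a secreted goblet cell protein that was not among the 10, between 7.69 and 8.53.

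The series design set the Western diet against the control diet. For the mucus genes the diet differences were small: 8 of 10 were lower and 2 higher on the Western diet, beside 59.6% lower of all genes tested. Their median log2 difference was -0.098, beside -0.058 over all genes tested. With 1 array left out, the members' median ran from -0.181 to -0.018. By limma, 0 of 10 members passed an adjusted p of 0.05 (smallest 0.995), nor did any other gene (0% of all genes tested), and 910 genes had an unadjusted p below 0.05. Fcgbp was the member with an unadjusted p below 0.05 and a lower value, 1 of 10 members beside 3.62% of all genes; 0 of 10 were higher at that level, beside 0.647%. In females alone Fcgbp was again the 1 lower member at that level (4.5% of all genes lower), and in males there were 0 (0.582% higher and 0.718% lower over all genes). In bulk RNA, fewer goblet cells and less RNA per goblet cell cannot be told apart.

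**Figure D1:**
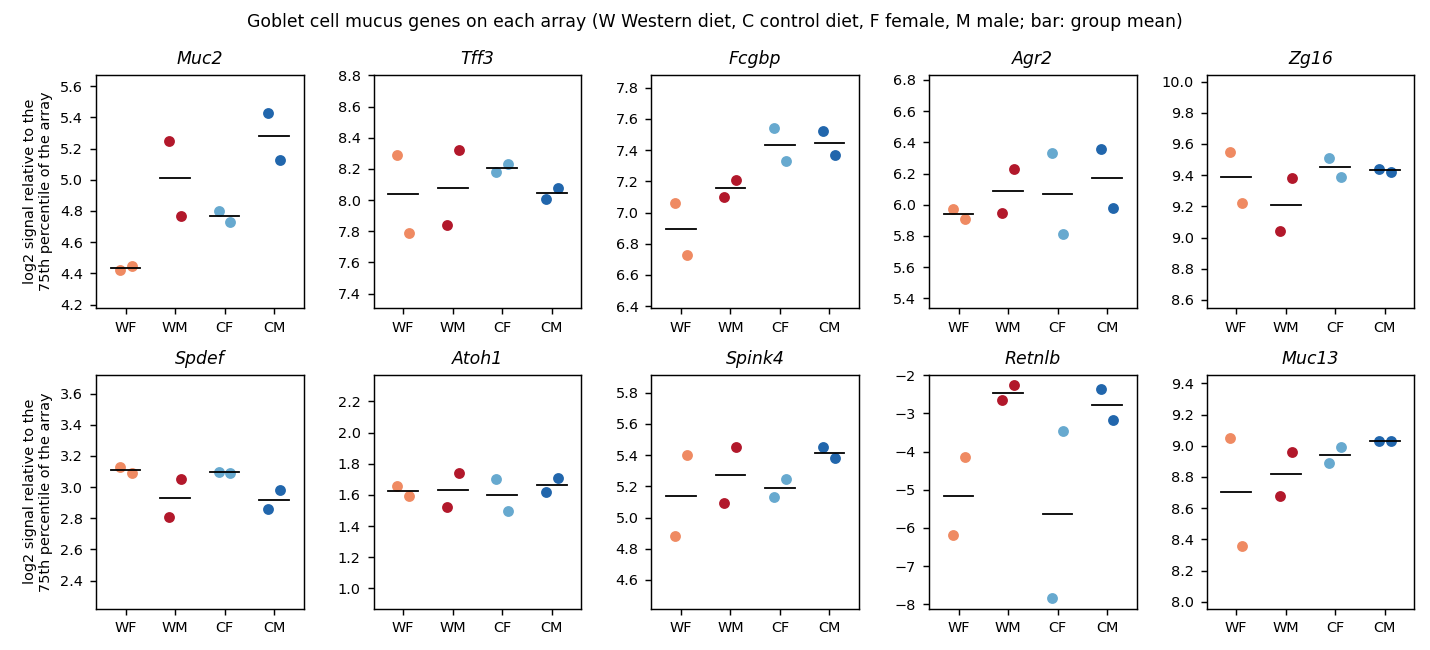
Log2 signal relative to the 75th percentile of the array (vertical axis) of the 10 mucus genes on each of the 8 arrays. Points are arrays and bars are group means (WF Western female, WM Western male, CF Control female, CM Control male); the vertical span is the same in all panels except that of Retnlb. The 4 Western points of Fcgbp lie below the 4 control points, and the female points of Muc2 lie low within each diet.

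Fcgbp, which encodes a large mucus protein bound to the Muc2 network, had log2 signals of 7.06 and 6.73 in Western females and 7.10 and 7.21 in Western males, against 7.54 and 7.33 in Control females and 7.52 and 7.37 in Control males. All Western arrays lay below all control arrays, a pattern seen for 2.3% of genes, and in the other direction for 0.864% of genes and 0 members. The Western mean was 7.03 ± 0.21 and the control mean 7.44 ± 0.10 (SD, n = 4 arrays each). The log2 difference was -0.41 ± 0.15 (SE; 95% interval -0.79 to -0.04), or 1.33-fold lower, with an unadjusted p of 0.0361 and an adjusted p of 0.995 by limma. It was -0.54 in females and -0.29 in males, and the difference between these was -0.25 ± 0.31 (SE, adjusted p = 1.00 by limma). The arrays lay on 3 slides. The log2 difference was -0.44 within slide 1, which held 1 array of each group, beside a median of -0.047 over all genes. It was -0.60 within slide 3, where only females could be compared, beside -0.221 over all genes. Without Western female 2, the lowest array, it was -0.33 with an unadjusted p of 0.101 by limma.

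Muc2, the gel-forming mucin that makes up the intestinal mucus layer, had 4.42 and 4.45 in Western females and 5.25 and 4.77 in Western males, against 4.80 and 4.73 in Control females and 5.43 and 5.13 in Control males. Both Western female arrays lay below both Control female arrays, and the male arrays overlapped. The diet difference of -0.30 ± 0.17 (SE; 95% interval -0.72 to 0.12) did not pass (adjusted p = 0.995 by limma), and it was -0.18 without Western male 2.

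The promoters of these genes are shown because Fcgbp was the member whose diet groups did not overlap and Muc2 the member with the smallest p between the sexes. Each run gives the 250 bases before the RefSeq start (assembly GRCm38.p6, chr7:28070986-28071235 for Fcgbp and chr7:141690090-141690339 for Muc2, plus strand, 5′ to 3′). Capitals mark the E-box motif CANNTG, the letters that basic helix-loop-helix factors such as Atoh1 bind, which reads the same on both strands.
Fcgbp: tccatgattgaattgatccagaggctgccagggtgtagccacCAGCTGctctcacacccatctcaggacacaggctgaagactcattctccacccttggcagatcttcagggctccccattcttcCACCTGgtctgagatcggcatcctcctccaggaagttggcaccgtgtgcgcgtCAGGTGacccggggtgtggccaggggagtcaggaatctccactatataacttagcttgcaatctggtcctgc
Muc2: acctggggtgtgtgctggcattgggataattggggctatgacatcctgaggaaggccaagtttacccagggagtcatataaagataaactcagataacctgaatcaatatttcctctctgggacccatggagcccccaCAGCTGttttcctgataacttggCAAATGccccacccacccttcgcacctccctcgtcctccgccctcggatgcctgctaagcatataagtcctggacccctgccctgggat
The Fcgbp run held 3 E-boxes and the Muc2 run 2, and 1 in each had the form CAGCTG. RefSeq windows of 300 bases, reaching 50 bases past the start, were given for 6 members (7 windows). CANNTG occurred in those of 4 members (Fcgbp, Muc2, Agr2 and Muc13) and CAGCTG in those of Fcgbp and Muc2. Over all 32851 windows the shares were 72.3% for CANNTG and 16.3% for CAGCTG, so a CANNTG match was common. Both motifs were absent from the letters of the Atoh1 and Spdef windows.

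The secreted protein genes Zg16, Tff3 and Spink4 gave smaller diet differences than Fcgbp and Muc2. Zg16, a lectin that binds and aggregates Gram-positive bacteria, had 9.55 and 9.22 in Western females and 9.04 and 9.38 in Western males, against 9.51 and 9.39 in Control females and 9.44 and 9.42 in Control males. The Western arrays spread widely (SD 0.22, n = 4) and the control arrays lay close together (SD 0.05, n = 4), and the groups overlapped. The log2 difference was -0.14 ± 0.16 (SE). Tff3, the intestinal trefoil peptide of mucosal repair, averaged 8.06 ± 0.28 on the Western diet and 8.13 ± 0.10 on the control diet (SD, n = 4 arrays each). Its difference was -0.07 ± 0.19 (SE). Spink4, a Kazal-type protease inhibitor gene of goblet cells, averaged 5.21 ± 0.27 on the Western diet and 5.30 ± 0.14 on the control diet, a difference of -0.09 ± 0.18 (SE). The direction for Tff3 turned to 0.02 when values were set relative to epithelial genes.

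Muc13, a mucin anchored in the apical membrane and made by enterocytes as well as goblet cells, had 9.05 and 8.36 in Western females and 8.68 and 8.96 in Western males, against 8.89 and 8.99 in Control females and 9.03 and 9.03 in Control males. Western female 2 was the lowest array, and Western female 1 the highest. The difference was -0.23 ± 0.20 (SE, adjusted p = 0.995 by limma), and -0.05 without Western female 2. Agr2, a disulfide isomerase of the endoplasmic reticulum (ER) that Muc2 folding needs in mice, averaged 6.02 ± 0.15 on the Western diet and 6.12 ± 0.27 on the control diet (SD, n = 4 arrays each). The difference was -0.10 ± 0.19 (SE).

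The transcription factors of the lineage lay closest to 0. Atoh1 had 1.66 and 1.59 in Western females and 1.52 and 1.74 in Western males, against 1.70 and 1.5 in Control females and 1.62 and 1.71 in Control males. Its range over all 8 arrays was 0.24 log2 units, the smallest of the 10 genes, and its 95% interval for diet ran from -0.35 to 0.34. Spdef averaged 3.02 ± 0.15 on the Western diet and 3.01 ± 0.11 on the control diet (SD, n = 4 arrays each), with an interval from -0.33 to 0.35.

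**Figure D2:**
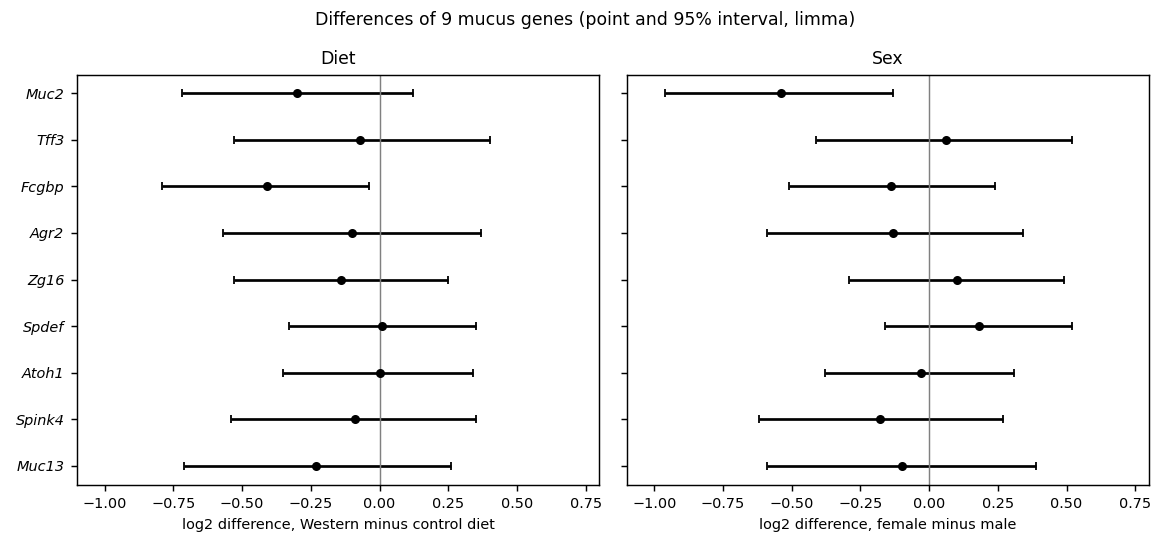
Log2 differences (horizontal axes) of the 9 mucus genes above background on all arrays, Western minus control diet on the left and female minus male on the right. Points are limma estimates and bars 95% intervals without adjustment; the interval of Fcgbp for diet (-0.79 to -0.04) and that of Muc2 for sex (-0.96 to -0.13) do not reach 0.

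The design text also names males against females. Here 7 of 10 mucus genes were lower and 3 higher in females, beside 37.7% lower of all genes. Their median log2 difference was -0.113, beside 0.075 over all genes. With 1 array left out, the members' median ran from -0.165 to -0.033. Without Control female 2, 5 were lower and 5 higher. By limma 0 of 10 passed (smallest adjusted p = 0.906), nor did any other gene (0% of all genes tested), and 821 genes had an unadjusted p below 0.05. Muc2 and Retnlb had an unadjusted p below 0.05 and a lower value, 2 of 10 members beside 1.19% of all genes; 0 of 10 were higher at that level, beside 2.66%.

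Muc2 averaged 4.60 ± 0.19 in females and 5.15 ± 0.28 in males (SD, n = 4 arrays each). Within each diet both female arrays lay below both male arrays. Over both diets the ranges met, since Western male 2 (4.77) lay just below the library labelled Control female 1 (4.80). The log2 difference was -0.54 ± 0.17 (SE; 95% interval -0.96 to -0.13), or 1.46-fold lower in females, with an unadjusted p of 0.0190 and an adjusted p of 0.906 by limma. On the Western diet alone, where no Control female array enters the difference, it was -0.58 ± 0.24 (SE, adjusted p = 1.00 by limma). There 0 of 10 members had an unadjusted p below 0.05, beside 0.488% of genes higher and 0.83% lower. The difference for Muc2 was -0.73 within slide 1 and -0.40 within slide 3, where only the control diet could be compared. The 4 tested markers of the distal intestine averaged 1.32 and 1.33 in Western females and 1.88 and 1.56 in Western males, against 1.77 and 1.83 in Control females and 1.82 and 1.88 in Control males. They were thus lowest in Western females, as Muc2 was, and their part in the result was not tested.

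Retnlb, which encodes a secreted antibacterial protein induced in goblet cells by type 2 cytokines, had -6.18 and -4.14 in Western females and -2.64 and -2.27 in Western males, against -7.84 and -3.45 in Control females and -2.36 and -3.18 in Control males. All female arrays lay below all male arrays, a pattern seen for 1.03% of genes. The probe was not well above background on Western female 1 and on the library labelled Control female 1, so 2 of 4 female arrays and 4 of 4 male arrays measured it. The log2 difference was -2.79 ± 1.01 (SE, adjusted p = 0.906 by limma), and its size depended on those dim values. It was -4.51 within slide 1, which held both dim arrays, and -0.27 within slide 3. With normexp background correction it was -0.85, and without the library labelled Control female 1 it was -1.69. For diet, Retnlb differed by 0.40 ± 1.01 (SE), and by -0.03 with normexp.

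Spdef differed in the other direction and little. Its log2 signals were 3.13 and 3.09 in Western females and 2.81 and 3.05 in Western males, against 3.1 and 3.09 in Control females and 2.86 and 2.98 in Control males. All female arrays lay above all male arrays, a pattern seen for 1.96% of genes, with a difference of 0.18 ± 0.14 (SE, adjusted p = 0.906 by limma). The remaining members overlapped between the sexes. For none of the 10 did the diet difference pass the test for a difference between the sexes by limma (smallest adjusted p = 1.00; 0 at an unadjusted p below 0.05, beside 0.46% higher and 1.16% lower over all genes).

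The members did not all vary together over the 8 arrays. Of 45 pairs, 4 had a Pearson correlation above 0.7 and 17 lay below 0 (median 0.26). The highest values joined Tff3 with Muc13 (0.78), Tff3 with Zg16 (0.76) and Fcgbp with Muc13 (0.74), and the lowest joined Muc2 with Spdef (-0.9). The 8 arrays share slides and scaling, and these values are a description. The genes with the pattern most like that of Muc2, outside the members, were Parp3, C2, Zmynd8, Cpd and Slc44a4 (r between 0.958 and 0.972, Spearman's rho between 0.857 and 0.976, over 8 arrays). C2, complement component 2, had 2.64 and 2.80 in Western females and 3.67 and 2.95 in Western males, against 3.18 and 2.99 in Control females and 3.80 and 3.75 in Control males. Like Muc2, it had its lowest values in Western females. Slc44a4, a choline transporter-like protein gene, differed by -0.63 ± 0.14 between the sexes (SE, adjusted p = 0.906 by limma). Between the diets it differed by -0.51 ± 0.14 (SE, adjusted p = 0.995 by limma). These genes were picked for their likeness to Muc2 on the same arrays, so differences like those of Muc2 follow from the choice.

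**Figure D3:**
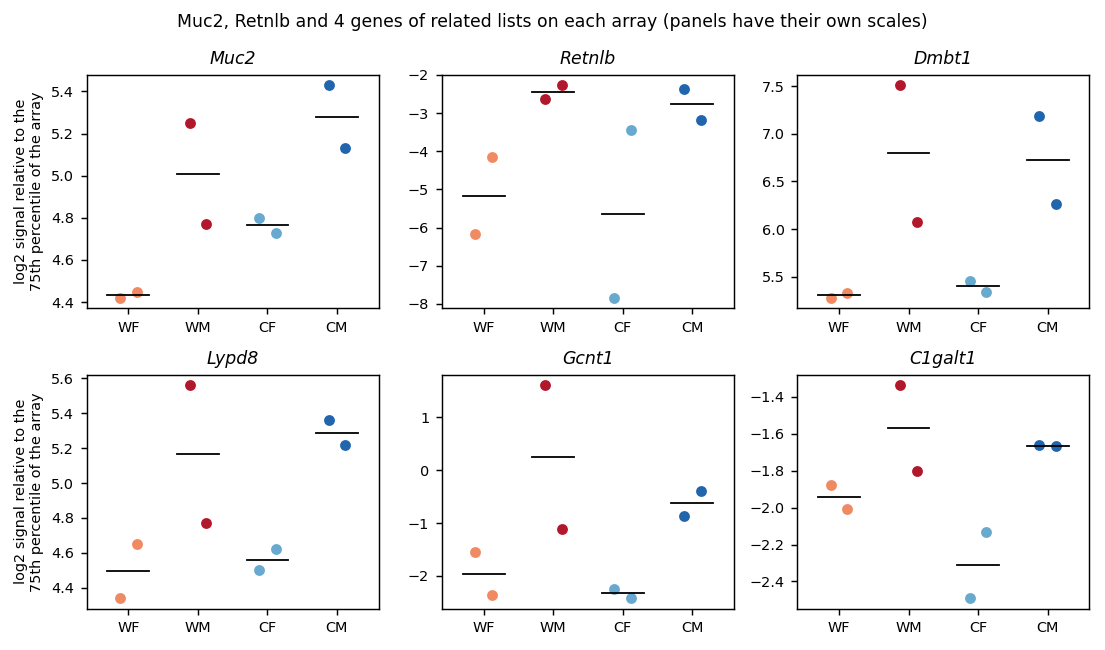
Log2 signal relative to the 75th percentile of the array (vertical axes, each panel with its own scale) of Muc2, Retnlb and 4 genes of related lists on the 8 arrays (WF Western female, WM Western male, CF Control female, CM Control male; bars are group means). The female arrays of Retnlb, Dmbt1, Lypd8, Gcnt1 and C1galt1 lie below all male arrays, and those of Muc2 lie below the male arrays of the same diet. Over all genes, all female arrays lay below all male arrays for 1.03% and above them for 1.96%. Hes5, Neurog3, Agr3, Il22 and Il25, also picked by the smallest p for sex in their lists, were higher in females and are not drawn. Dnajb9, picked likewise and lower, is not drawn either.

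Of a list of 30 names drawn up as other goblet cell products, 23 were tested. Which cells made each transcript was not tested. For diet 6 were higher and 17 lower (median -0.067), 0 passed, and 1 had an unadjusted p below 0.05. That gene, Capn8, a calpain protease of mucus-secreting cells, differed by -0.38 ± 0.15 (SE, adjusted p = 0.995 by limma), but by 0.18 under quantile normalization and -0.09 within slide 3. Tff1, the gastric trefoil peptide, was well above background on 2 arrays and differed by 1.29 ± 0.62 (SE). Its difference was 2.55 within slide 1 and -2.32 within slide 3, and 0.07 with normexp background correction. Muc5ac, the gastric gel-forming mucin, differed by -0.39 ± 0.19 (SE), by -0.24 without Control male 1 and by -0.02 under quantile normalization. For sex, 12 of the 23 were lower and 11 higher, 0 passed, and 2 had an unadjusted p below 0.05. Dmbt1, a secreted scavenger receptor protein that binds bacteria, had 5.28 and 5.33 in Western females and 7.51 and 6.08 in Western males, against 5.46 and 5.34 in Control females and 7.19 and 6.26 in Control males. The female arrays lay close together and below all male arrays, a pattern seen for 1.03% of genes. The difference was -1.40 ± 0.37 (SE, adjusted p = 0.906 by limma). Lypd8, a secreted protein that keeps flagellated bacteria from the epithelium, differed by -0.70 ± 0.22 (SE, adjusted p = 0.906 by limma), again without overlap.

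Factors of the secretory lineage and of Notch signalling were tested for 20 of 20 names. For diet 12 were higher and 8 lower (median 0.045), 0 passed, and 1 had an unadjusted p below 0.05. Hes5, a repressor induced by Notch, differed by -0.48 ± 0.15 (SE, adjusted p = 0.995 by limma), but by 0.17 under quantile normalization, and it was well above background on 7 arrays. Between the sexes Hes5 differed by 0.64 ± 0.15 (SE, adjusted p = 0.906 by limma), by 0.21 with normexp and by 0.12 under quantile normalization. Neurog3, the factor of the enteroendocrine lineage, differed by 0.62 ± 0.27 between the sexes (SE), and by 0.38 without Western male 1. The Notch receptor gene Notch1 differed by -0.78 ± 0.42 between the diets (SE). For Notch1 the value was -0.34 without Control female 2 and -1.21 without the library labelled Control female 1, and it was -0.11 within slide 1 and -2.68 within slide 3. Adam10, whose protease cleaves Notch, differed by 0.30 ± 0.20 between the diets (SE), by 0.17 without the library labelled Control female 1 and by -0.13 within slide 3. For sex 8 genes of this list were higher and 12 lower, 0 passed, and Hes5 had an unadjusted p below 0.05.

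Enzymes that build mucin O-glycans were tested for 24 of 26 names. For diet 16 were higher and 8 lower (median 0.073), with 0 passing and 0 at an unadjusted p below 0.05. Of the named enzymes and transporters, St3gal6, a sialyltransferase, differed by 0.38 ± 0.18 and Slc26a2, a sulfate transporter, by 0.23 ± 0.16 (SE). Within slide 3 these were 0.14 and -0.18. Without Western female 1, 10 of the 24 were higher and 14 lower (median -0.035). For sex 17 were lower and 7 higher in females (median -0.134), and 0 passed. At an unadjusted p below 0.05 by limma 2 were lower, beside 1.19% of all genes, and 0 higher, beside 2.66%. Without Western female 2, 14 were lower and 10 higher (median -0.041). C1galt1, the enzyme that extends the first sugar of the glycan into core 1, had -1.88 and -2.01 in Western females and -1.34 and -1.80 in Western males, against -2.49 and -2.13 in Control females and -1.66 and -1.67 in Control males. Its sex difference was -0.51 ± 0.18 (SE, adjusted p = 0.906 by limma). Gcnt1, which branches core 1 into core 2, had -1.55 and -2.36 in Western females and 1.60 and -1.11 in Western males, against -2.24 and -2.42 in Control females and -0.87 and -0.39 in Control males. Western male 1 was the highest array, and all female arrays lay below all male arrays, a pattern seen for 1.03% of genes. The difference was -1.95 ± 0.60 (SE, adjusted p = 0.906 by limma). It was -1.27 without Western male 1. The array has 2 Gcnt1 probes, and with their mean the difference was -1.40 with an unadjusted p of 0.081 by limma.

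ER genes that fold and quality-control secreted protein (16 of 16 names tested) had 8 higher and 8 lower for diet (median 0.011; -0.121 to 0.149 with 1 array left out), with 0 passing and 0 at an unadjusted p below 0.05. Xbp1, the transcription factor of the unfolded protein response, differed by 0.23 ± 0.16 (0.07 within slide 3), and Ern2, the IRE1 isoform of mucus-secreting epithelium, by -0.14 ± 0.17 (SE). For sex 12 were lower and 4 higher (median -0.070), again with 0 passing and 0 at an unadjusted p below 0.05. With 1 array left out, that median ran from -0.149 to 0.035, and without Western female 2, 9 were higher and 7 lower. Type 2 and IL-22 signals were tested for 8 of 12 names, since Il4, Il13, Il9 and Tslp were well above background on fewer than 2 arrays. Of the 8, 7 were lower and 1 higher on the Western diet (median -0.402), 0 passed, and 1 had an unadjusted p below 0.05. Without Control female 2, 5 were lower and 3 higher (median -0.042). On that array Il25, the tuft cell cytokine that starts type 2 responses, stood at -1.07, against -7.62 to -4.85 on the other arrays. Il25 was well above background on 2 arrays. The gene with an unadjusted p below 0.05 by limma was Pou2f3, the transcription factor that specifies tuft cells. Pou2f3 had -4.49 and -4.87 in Western females and -4.51 and -4.42 in Western males, against -3.86 and -3.32 in Control females and -3.71 and -4.21 in Control males. All Western arrays lay below all control arrays, a pattern seen for 2.3% of genes. The difference was -0.80 ± 0.21 (SE, unadjusted p = 0.00911, adjusted p = 0.995 by limma). It was -0.38 with normexp, -0.27 with quantile normalization and -1.55 within slide 3. The cytokine gene Il22 differed by -0.77 ± 0.35 (SE), by -0.44 without Control female 2, by -0.39 within slide 1 and by -2.14 within slide 3.

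**Figure D4:**
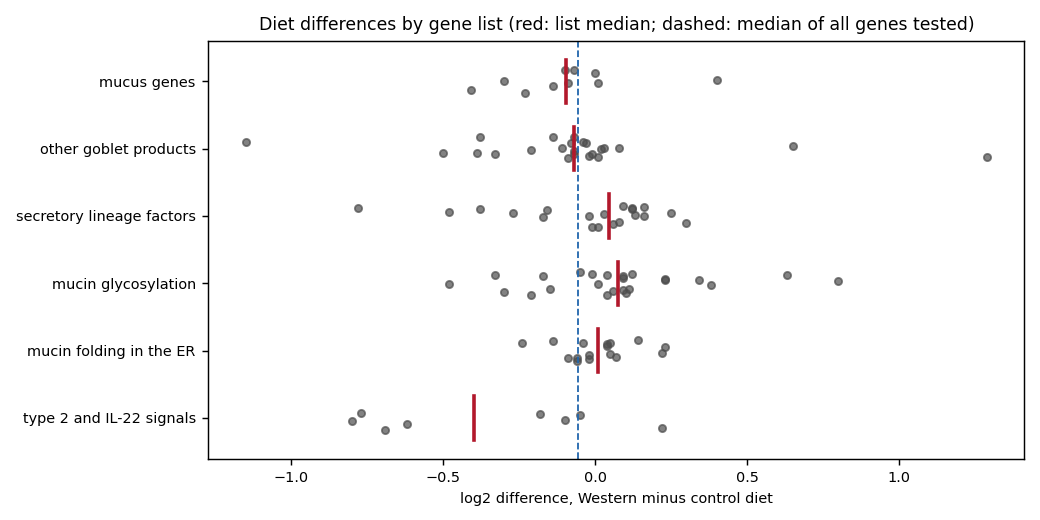
Log2 differences for diet, Western minus control (horizontal axis), of the mucus genes and the tested members of 5 related lists. Points are genes, red lines list medians (-0.098 for the mucus genes, -0.402 for type 2 and IL-22 signals, which was -0.042 without Control female 2), and the dashed line is the median of all genes tested (-0.058).

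Markers of other cells varied between arrays beside these values. The 5 tested erythrocyte markers averaged 0.81 to 2.50 on Western arrays and -0.91 to 1.54 on control arrays, and -0.91 to 1.44 on female arrays and 0.63 to 2.50 on male arrays. For diet 5 of 5 were higher (median 1.382), 4 of them at an unadjusted p below 0.05 by limma, beside 0.647% of all genes. For sex 5 of 5 were lower in females (median -1.115), 4 of them at that level, beside 1.19% of all genes. In either, 0 passed by adjusted p. With 1 array left out, the median ran from 1.045 to 1.817 for diet and from -1.591 to -0.638 for sex. The 8 smooth muscle markers averaged -2.90 to -1.19 on Western arrays and -2.64 to 1.91 on control arrays, the highest being Control male 1. The 6 fibroblast markers averaged -3.16 to -1.71 on Western arrays and -3.25 to 0.38 on control arrays. All 6 were lower in females (median -0.914), and without Control male 1, 5 were lower and 1 higher (median -0.137). The 10 enterocyte markers averaged 6.57 to 7.39 on Western and 6.53 to 7.45 on control arrays, and 6.59 to 7.45 on female and 6.53 to 7.03 on male arrays. For diet 2 of them were lower at an unadjusted p below 0.05 by limma and 0 higher, beside 3.62% and 0.647% of all genes. For sex 2 were higher in females and 0 lower at that level, beside 2.66% and 1.19%. By adjusted p 0 passed. The 5 tested Paneth cell markers averaged 6.42 to 7.20 on Western and 6.63 to 7.09 on control arrays. The 3 fat cell markers averaged 1.27 on Western female 2, against -6.48 to -3.57 on the other arrays, and Fcgbp (6.73), Tff3 (7.79) and Muc13 (8.36) were lowest on that array. Without Western female 2 the diet difference of Fcgbp was -0.33. Of 7 gastric and Brunner's gland markers 3 were tested, among them Muc5ac, well above background on 8 arrays, and Tff1, on 2. The 3 averaged -5.11 to -3.72 on Western arrays and -4.99 to -3.80 on control arrays. Gkn1, Gkn2 and Tff2 were well above background on fewer than 2 arrays, and Muc6 had no matching probe. The 5 epithelial genes Epcam, Cdh1, Krt8, Krt18 and Krt19 averaged 6.36 to 6.45 on Western arrays and 6.31 to 6.62 on control arrays. Relative to them, the diet difference of Fcgbp was -0.33 ± 0.17 (SE, unadjusted p = 0.105) and the sex difference of Muc2 -0.56 ± 0.21 (SE, unadjusted p = 0.0403), with adjusted p of 0.953 and 0.965 by limma. The part of these other cells in the results was not tested.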

How the data were processed

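Each of the 8 arrays was deposited by the authors as scanner output (Agilent Feature Extraction 10.7.3.1 on design 026655, per the file headers), with intensity values on a linear scale; gProcessedSignal, used here, is background-subtracted by that software. The headers name mm9. The RefSeq gene names and promoters are of GRCm38.p6, and the promoter coordinates printed are of that assembly.

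Outlier-flagged spots and 1377 control spots were left out, and log2 signal was expressed relative to the 75th percentile of each array. Repeated spots of a probe were averaged. Of 39429 probes, 25751 were well above background on at least 2 arrays; 26412 had a symbol and 13017 none. The brightest probe stood for each of 21319 genes (14840 with a symbol). limma 3.58.1 in R 4.3.3 was fitted to 4 group means over 8 arrays, and p-values were adjusted over all genes by Benjamini-Hochberg, with a threshold of 0.05. The number of arrays limits the precision. The procedure was tested on simulated data.

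The members and lists were chosen with earlier results of these data known. All members are named, with up to 3 genes of each related list by the smallest p for diet, up to 2 by that for sex, and the 5 genes most correlated with Muc2; some of these are given by counts alone. Alternatives covered background (normexp with an offset of 50, on gMedianSignal, since the files hold no mean signal), scaling, filters, probe choice, blocks, slides and left-out arrays. Scaling to epithelial genes, and leaving arrays out of the list counts, were added after seeing the data.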

Additional observations from a re-analysis of the deposited data

Results flagged for a closer look

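Zg16 on Western male 1 stood at 9.04, away from the other male arrays at 9.38 to 9.44, a gap of 0.851 of the range of the 4 male arrays, above Dixon's critical value for 4 samples. It was 1 of 40 gene and group combinations examined, and chance flags about 1 in 20.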

How the results depend on the processing

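No mucus gene passed an adjusted p of 0.05 under any alternative run (smallest 0.277 by limma), and the differences for Fcgbp by diet and for Muc2 and Spdef by sex kept their direction under every alternative run. Some directions turned. For diet, normexp gave 0.05 for Atoh1 and -0.03 for Retnlb, quantile normalization -0.01 for Spdef, 0.18 for Capn8 (-0.38 as reported), 0.17 for Hes5 (-0.48 as reported) and 0.01 for Ern1 (-0.24 by the reported fit), the percentile over probes above background on every array -0.01 for Spdef, and scaling to epithelial genes 0.02 for Tff3 and 0.08 for Atoh1; the cause was not tested. With fewer arrays, the members' median was 0.055 for sex within slide 1, beside 0.047 over all genes. For diet within slide 3 it was -0.227, beside -0.221 over all genes. With quantile normalization 60.3% of the 759 genes with an unadjusted p below 0.05 for diet were higher, against 15.2% of 910, and the median of all genes was 0.047 instead of -0.058; without a filter it was -0.175.

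Leaving out each array in turn gave 0 to 397 genes called for diet in females (397 without the library labelled Control female 1, 0 of them mucus genes, and 2 without Control female 2), 0 to 2 for the sex difference in the diet effect, 0 to 3 for sex and 0 to 2 for sex on the Western diet. Without the library labelled Control female 1, Control female 2 was the only Control female array. It had 75.7% of probes well above background, against 55.1% to 61.9% on the other arrays. That fit cannot tell diet from the deviation of this array, so its calls were not read as a diet effect. The median diet difference of all genes in females was -0.143 there, and -0.048 without Control female 2. With 1 array left out, diet differences ranged from -0.19 to 0.06 for Tff3, -0.23 to 0.03 for Agr2, -0.05 to 0.07 for Spdef, -0.06 to 0.05 for Atoh1, -0.23 to 0.04 for Spink4 and -0.70 to 1.5 for Retnlb. Sex differences ranged from -0.07 to 0.18 for Tff3, -0.26 to 0.00 for Agr2, -0.09 to 0.02 for Atoh1 and -0.27 to 0.08 for Muc13. Fcgbp ranged from -0.50 to -0.33 and Muc2 from -0.42 to -0.18 by diet, and Muc2 from -0.67 to -0.42 by sex.

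Same-numbered arrays of different groups deviated together weakly (correlations of -0.12 to 0.35 over 6 group pairs, 2 above 0.1), so they were not taken as pairs. With the replicate number as a block 0 genes were called for diet, and Fcgbp differed by -0.41 (adjusted p = 0.984 by limma) and Muc2 by -0.54 for sex (adjusted p = 0.885 by limma). Retnlb has no value where probes had to be above background on all 8 arrays.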
